A study of Zea mays with 12 samples.

Results

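The genes described here are 187 maize gene models, of 39423 in the deposited table. Levels were compared between the maternal transfer zone (MATZ) of the kernel and the facing basal endosperm transfer layer (BETL). These genes were at least 4-fold higher in MATZ at 14 and 20 days after pollination (DAP), but not at 8 DAP. They were chosen by their measured values: a mean of at least 50 FPKM in MATZ and a MATZ mean at least 4 times the BETL mean at both 14 and 20 DAP, with a ratio under 4 at 8 DAP and a BETL value there less than 3 times that of MATZ. FPKM is fragments per kilobase of transcript, scaled to library size, and each ratio was taken on means of 2 libraries with 1 FPKM added. Of 195 genes that met these limits, 8 are not analysed here, being among 15 gene IDs that were left out.

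The MATZ and BETL samples were cut from frozen kernels of field-grown plants of the W22 inbred, all of wild-type genotype, and total RNA was sequenced on an Illumina platform. The study followed the pair of tissues through grain filling, with MATZ at 8, 14 and 20 DAP and BETL at 8, 14 and 20 DAP, and 2 libraries in each of the 6 groups. No label ties the 2 libraries of a group to different plants or ears, so p-values measure only the spread between these libraries, which may be technical. Each piece of tissue holds several kinds of cell, so fewer cells of a type and less RNA per cell cannot be told apart.

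Sugars, amino acids and minerals reach the grain through the maternal tissue at the kernel base, which has no cytoplasmic connection to the endosperm. They are released from maternal cells and taken up by the BETL, whose cells carry wall ingrowths. Parts of the maternal tissue die during filling, and proteases of the papain and legumain families are known for their roles in plant cell death and senescence. MADS-box factors of the AGAMOUS class are known from ovule and carpel identity.

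Each library's values added up to between 731024 and 987477 FPKM, and the table holds no read counts. Low values fell on regular steps. Several libraries showed more than 1 step size, and the most frequent was used, so the depths given here are uncertain. If 1 step is 1 fragment, which is an inference, the libraries hold about 94114 to 706632 fragments, and a fragment on a transcript of 1000 bp was worth 1.42 to 10.6 FPKM. The summed level of 16 BETL marker genes was 2370.1 to 2993, 6833 to 7547 and 10319.9 to 11752 FPKM for the MATZ libraries of 8, 14 and 20 DAP. For the BETL libraries the same sum was 45825 to 55119, 49799 to 59343 and 84444 to 93004 FPKM in the same order of age. The 29 starchy endosperm markers summed to 11417 to 11765 FPKM in MATZ and 4380 to 4497 in BETL at 14 DAP, against 65.1 to 79.9 in MATZ and 78.1 to 89.2 in BETL at 8 DAP. At 20 DAP the same markers summed to 879 to 1236 FPKM in MATZ and 1548 to 1617 in BETL, so both tissues were highest at 14 DAP. MADS-box genes were planned as an ovule and maternal list. At 8, 14 and 20 DAP this list of 28 summed to 2356 to 2411, 3622 to 3782 and 4529 to 4577 FPKM in MATZ. In BETL it summed to 773 to 876, 658 to 776 and 442 to 474 FPKM. The part of other cell types in the results below was not tested. No gene of the BETL or starchy endosperm lists, of 10 embryo markers, 9 photosynthesis genes or 3 vascular markers is among the 187. Of the MADS-box list, 3 genes are.

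Across the 187 genes the median MATZ level was 125, 176 and 163 FPKM at 8, 14 and 20 DAP. In BETL it was 59.7, 30.0 and 17.0 FPKM at the same ages. The median ratio of MATZ to BETL was 2.07 at 8 DAP (range 0.397 to 3.995), 5.77 at 14 DAP (4.02 to 28.4) and 9.54 at 20 DAP (4.05 to 93.1). A ratio of at least 10 was reached by 0, 27 and 83 genes at the 3 ages. Together they made up 6.27% ± 0.434, 9.33% ± 0.0792 and 6.80% ± 0.200 of all FPKM in MATZ at 8, 14 and 20 DAP (SD, n = 2 libraries each). In BETL the shares were 3.66% ± 0.270, 1.35% ± 0.0718 and 0.613% ± 0.0197.

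Most of the genes were already somewhat higher in MATZ at 8 DAP: the ratio was above 2 in 101 and above 3 in 35, and below 1 in 21. Both MATZ libraries stood above both BETL libraries in 139 of 187 genes at 8 DAP, which is 74.3% of them, where 27.2% of all 24213 tested genes and 58.3% of the 2077 genes with MATZ means of at least 50 FPKM at 14 and 20 DAP did so. Both BETL libraries stood above in 13, against 2826 of the 24213 tested genes and 284 of the 2077 MATZ-abundant ones. At 14 DAP MATZ stood above in 186 genes, and at 20 DAP in all 187. Among all tested genes MATZ stood above in 5094 at 14 DAP and 6903 at 20 DAP. Among the MATZ-abundant ones it did so in 1259 and 1515. Limma, which uses 1 spread per gene over all 12 libraries, called 43 of the 187 genes higher and 1 lower in MATZ at 8 DAP (adjusted p under 0.05). The shares were 5.31% and 2.16% of all tested genes. Of the MATZ-abundant genes 22.1% (460 of 2077) were called higher, so the share among the 187 is near this background. It called 168 higher at 14 DAP and 173 at 20 DAP, beside 4.38% and 6.38% of all genes. The selection used these contrasts, so the counts only describe the genes.

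Between 8 and 14 DAP more of the genes passed the 4-fold limit with a lower BETL level than with a higher MATZ level. In 46 genes (24.6%) the MATZ mean was at least 2-fold higher at 14 than at 8 DAP while the BETL mean stayed within 2-fold, and in 83 (44.4%) the BETL mean was at least 2-fold lower while MATZ stayed within 2-fold. Of the others, 33 stayed within 2-fold in both tissues, 11 were higher in both, 9 were lower in both, and 5 were higher in MATZ and lower in BETL. A MATZ mean at least 2-fold higher was seen in 62 genes (33.2%), against 28% of all tested genes and 27.1% of the 2077 MATZ-abundant genes. A BETL mean at least 2-fold lower was seen in 97 genes (51.9%), against 10.6% of all tested genes and 14.9% of the MATZ-abundant ones. The choice of the genes favours both changes without fixing which of them is the more frequent, but it need not favour them equally. At 14 DAP the median SD between replicates of the 187 genes was 0.363 on the log2 scale in BETL and 0.164 in MATZ. How far this tilts the counts toward a lower BETL level was not tested. Limma called 28 genes (15.0%) higher and 5 (2.67%) lower in MATZ at 14 than at 8 DAP, beside 3.11% and 2.48% of all tested genes and 13.3% and 3.71% of the 2077 MATZ-abundant genes. The higher calls were thus about as frequent as among MATZ-abundant genes in general. In BETL it called 7 (3.74%) higher and 71 (38.0%) lower, beside 9.06% and 2.58% of all tested genes and 19.9% and 11.6% of the MATZ-abundant ones. The MATZ split moved with the scaling. Median-of-ratios scaling gave 18 higher and 10 lower, and quantile normalization 23 higher and 8 lower. Over all tested genes the MATZ calls were 752 higher and 600 lower as reported, 464 and 812 on the first of these scales, and 498 and 630 on the second. In BETL the 187 genes gave 3 higher and 94 lower on the first and 4 and 91 on the second. Over all tested genes the BETL calls were 2194 higher and 624 lower as reported, 1358 and 1013 on the first scale, and 911 and 1016 on the second. The change in MATZ exceeded that in BETL by the same test in 32 genes (17.1%), beside 0.566% of all genes and 4.29% of the MATZ-abundant ones, in the direction set by the selection.

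**Figure D1:**
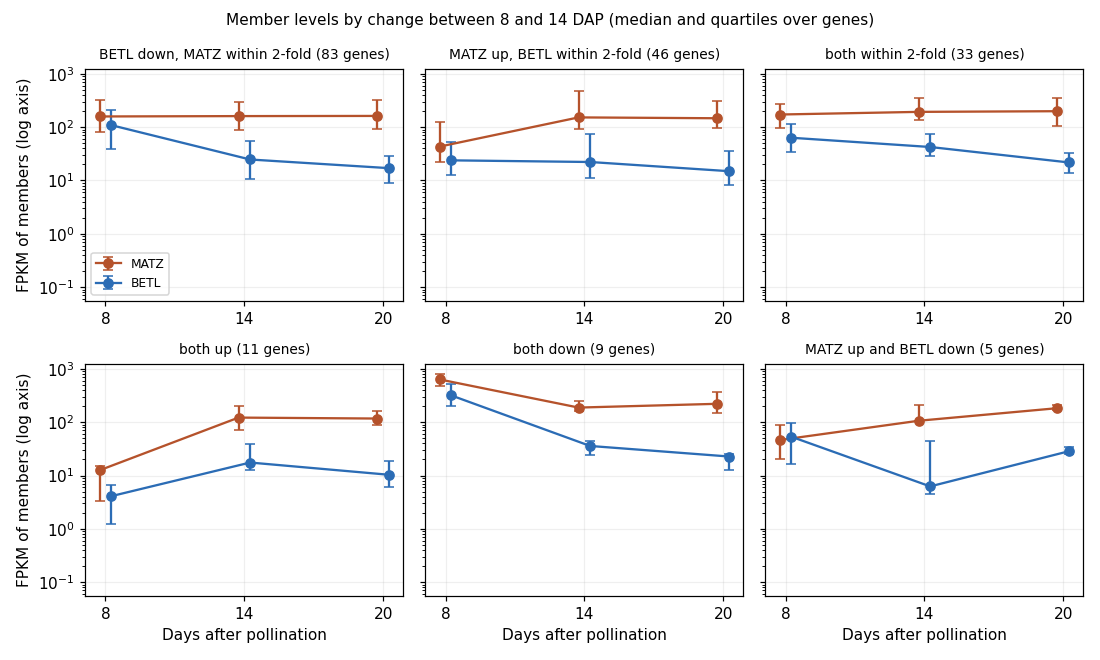
Levels in MATZ (orange) and BETL (blue) at 8, 14 and 20 DAP for the 187 genes, grouped by how they differed between 14 and 8 DAP; points are medians over genes and bars the quartiles, in FPKM on a log axis. In the 83 genes of the first panel the MATZ median stayed between 159 and 162.5 FPKM while the BETL median was 109, 24.75 and 17.0 FPKM at the 3 ages.

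The median log2 difference between 14 and 8 DAP over the 187 genes was 0.54 in MATZ and -1.09 in BETL, beside 0.20 in MATZ and 0.76 in BETL over all tested genes. On the deposited scale the BETL median of all genes was thus higher at 14 DAP and that of the 187 lower. The level of all genes depends on the scaling: with median-of-ratios scaling the fitted median of the 187 genes was 0.12 in MATZ and -1.70 in BETL, beside 0 in MATZ and 0.44 in BETL over all tested genes. With quantile normalization the same median was 0.36 in MATZ and -1.50 in BETL, beside 0.10 in MATZ and -0.03 in BETL over all tested genes, so the upward move of all genes in BETL was not seen on that scale. The top 10 genes took up 8.54% and 8.69% of the FPKM total in the MATZ libraries at 14 DAP, against 26.3% and 28.0% at 8 DAP, which moves with the MATZ levels of other genes; the part of this in the MATZ change was not tested.

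**Figure D2:**
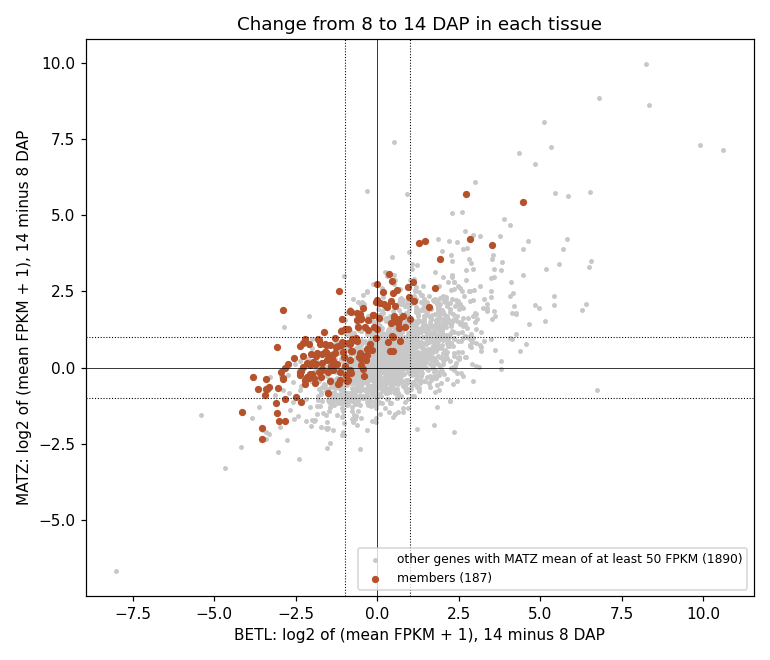
Log2 difference of mean FPKM + 1 between 14 and 8 DAP in BETL (horizontal axis) and MATZ (vertical axis) for the 187 genes (orange) and the 1890 other genes with MATZ means of at least 50 FPKM at 14 and 20 DAP (grey); dotted lines mark 2-fold. Most orange points lie toward the upper left, the side that the selection sets, and 97 of them lie left of the 2-fold line for BETL.

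Proteases made up 4 of the genes with a descriptive name, 3 of them from a list of 19 tested cell death and autophagy genes. The gene ccp1 (GRMZM2G098298; chromosome 5, 158865959 to 158869458 in the coordinates of the table, whose build is not given in the sources used here) codes for a papain-type cysteine protease and was the most abundant at 20 DAP. It stood at 2776 and 2379 FPKM in MATZ against 2178 and 1737 in BETL at 8 DAP. At 14 DAP it stood at 2246 and 2418 FPKM in MATZ against 348 and 411 in BETL, and at 20 DAP at 2609 and 2726 in MATZ against 242 and 295 in BETL. All 6 MATZ libraries lay between 2246 and 2776 FPKM, while BETL lay far below its 8 DAP level from 14 DAP on. The ratio was 1.32 at 8 DAP, 6.13 at 14 DAP and 9.90 at 20 DAP.

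The legumain-type protease gene see2b (GRMZM2G093032; chromosome 3, 225822959 to 225828669) took the other course. It stood at 293 and 284 FPKM in MATZ against 131 and 102 in BETL at 8 DAP, and at 1150.2 and 1132 in MATZ against 141 and 144 in BETL at 14 DAP. At 20 DAP it stood at 1484 and 1647 FPKM in MATZ against 71.4 and 66.9 in BETL. The MATZ libraries of successive ages did not overlap, each age being higher than the one before, while BETL was lowest at 20 DAP. In BETL the log2 change between 20 and 14 DAP was -1.04 ± 0.19 (SE; limma adjusted p = 0.0401), a call that was lost when any 1 of 8 libraries was left out.

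The cysteine protease gene mir3 (GRMZM2G166281; chromosome 2, 5269563 to 5273858) stood at 537 and 386 FPKM in MATZ against 261 and 277 in BETL at 8 DAP. Its values were 746 and 732 FPKM in MATZ against 107 and 113 in BETL at 14 DAP, and 650.3 and 717 in MATZ against 46.3 and 41.4 in BETL at 20 DAP. BETL was lower at each age than at the one before with no overlap, and the step between 20 and 14 DAP was -1.31 ± 0.21 on the log2 scale (SE; limma adjusted p = 0.0234). That call was not made without MATZ 14 DAP replicate 1 or without any of the 4 BETL libraries of 14 and 20 DAP. The record of GRMZM2G038636 carries the names ccp2 and see1 and is a cysteine protease gene expressed at a lower level. It stood at 23.8 and 16.4 FPKM at 8 DAP, 72.8 and 50.7 by 14 DAP, then 154 and 139.7 by 20 DAP in the MATZ libraries. BETL held it between 8.09 and 16.6 FPKM in all 6 libraries, so the tissues overlapped at 8 DAP and separated from 14 DAP on. Its log2 change in MATZ between 20 and 14 DAP was 1.26, with a limma adjusted p of 0.228.

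Over the whole list of 19 cell death and autophagy genes, most of which belong to the autophagy (ATG) family, limma called 2 higher and 0 lower in MATZ at 14 than at 8 DAP, and 0 higher and 1 lower in BETL. The shares over all tested genes were 3.11% higher and 2.48% lower in MATZ, and 9.06% and 2.58% in BETL. Between 20 and 14 DAP limma called 0 of the list in MATZ and 1 in BETL, which was see2b, lower. Over all tested genes it called 0.772% higher and 0.698% lower in MATZ, and 0.277% and 0.525% in BETL. The list median of the log2 change in MATZ between 14 and 8 DAP was 1.33, against 0.14 over all tested genes. In BETL the same median was 0.30, against 0.75. Between 20 and 14 DAP it was -0.09 in MATZ and 0.04 in BETL, against 0 in both tissues over all tested genes.

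Of 28 tested genes in the MADS-box list, 3 were among the 187, and 2 more met the limits but are among the IDs left out. The list went by symbols and did not catch the member m4 (GRMZM2G032339), whose family was not checked. Its means were 13.9, 90.7 and 52.3 FPKM in MATZ at 8, 14 and 20 DAP, and 4.38, 17.5 and 2.92 in BETL. ZMM2 (GRMZM2G359952; chromosome 8, 22978101 to 22987122), an AGAMOUS-class gene, stood at 249 and 218 FPKM in MATZ against 123 and 167 in BETL at 8 DAP. At 14 DAP it stood at 165 and 186 in MATZ against 24.8 and 35.7 in BETL, and at 20 DAP at 185 and 262 in MATZ against 23.8 and 22.9 in BETL. The MATZ libraries stayed between 165 and 262 FPKM, and the BETL libraries at 14 and 20 DAP lay below all at 8 DAP. ZAG1 (GRMZM2G052890; chromosome 6, 131824448 to 131832722), of the same class, was at 70.6 and 73.8 FPKM in MATZ against 30.3 and 20.3 in BETL at 8 DAP, 149 and 193 in MATZ against 22.3 and 19.1 in BETL at 14 DAP, and 128 and 145 in MATZ against 7.90 and 9.07 in BETL at 20 DAP. Its MATZ libraries at 14 and 20 DAP lay above those at 8 DAP, and its lowest BETL values were at 20 DAP.

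A further MADS-box gene, MADS7 (GRMZM2G099522), whose record carries 3 names, stood at 156 and 298 FPKM in MATZ against 115 and 33.9 in BETL at 8 DAP. At 14 DAP it was at 230.2 and 249.8 in MATZ against 64.6 and 39.7 in BETL, and at 20 DAP at 329 and 350.5 in MATZ against 32.1 and 22.0 in BETL. The libraries at 8 DAP were far apart within each tissue, though MATZ stood above BETL in all pairs at each age. Neither ZMM2, ZAG1 nor MADS7 passed the test between 20 and 14 DAP in MATZ (limma adjusted p = 0.674, 0.721 and 0.744) or in BETL (0.915, 0.172 and 0.792). Over the 28 MADS-box genes limma called 1 higher and 0 lower in MATZ and 1 higher and 2 lower in BETL at 14 against 8 DAP. The shares over all tested genes were 3.11% higher and 2.48% lower in MATZ, and 9.06% and 2.58% in BETL. At 20 against 14 DAP limma called 0 of the 28 in MATZ and 1 lower in BETL. Over all tested genes it called 0.772% higher and 0.698% lower in MATZ, and 0.277% and 0.525% in BETL.

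**Figure D3:**
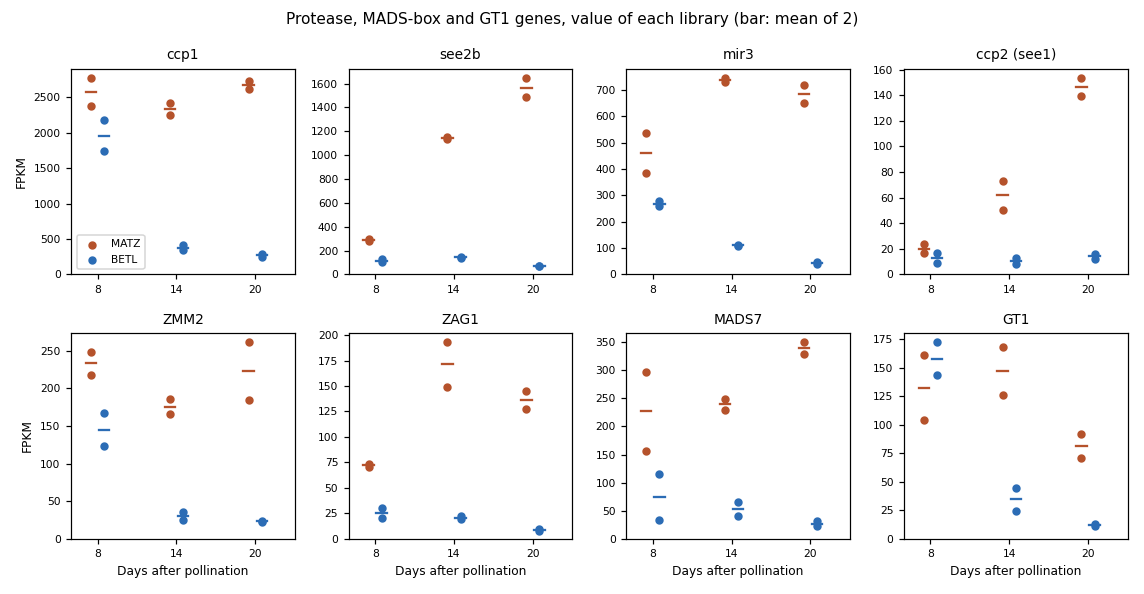
FPKM of 4 protease genes, 3 MADS-box genes and GT1 in each library at 8, 14 and 20 DAP; MATZ points are orange and left of BETL points, which are blue, and bars are means of 2 libraries. For ccp1 the 4 BETL libraries at 14 and 20 DAP lie between 242 and 411 FPKM, below the BETL libraries at 8 DAP, and for see2b the 4 MATZ libraries at those ages lie between 1132 and 1647 FPKM.

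Signalling genes among the 187 included several that were near 0 in both tissues at 8 DAP. PP2C19 (GRMZM2G069713), a protein phosphatase of the 2C family, stood at 6.25 and 2.24 FPKM in MATZ against 0 and 2.65 in BETL at 8 DAP. It was at 248 and 206 in MATZ against 45.0 and 56.2 in BETL at 14 DAP, and at 141 and 132 in MATZ against 19.8 and 28.2 in BETL at 20 DAP. The tissues overlapped at 8 DAP and were apart afterwards, with both at their highest at 14 DAP. AUX15 (GRMZM2G079200), the single member from 41 tested genes with auxin names (1 of them left out by its ID), was at 15.5 and 5.23 FPKM in MATZ against 0 and 4.57 in BETL at 8 DAP, 176 and 193 in MATZ against 30.2 and 43.5 in BETL at 14 DAP, and 135 and 212 in MATZ against 20.4 and 26.3 in BETL at 20 DAP. Both tissues were higher at 14 than at 8 DAP with no overlap.

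SnRK2.1 (GRMZM2G035809), a protein kinase of a family that acts in abscisic acid and osmotic stress signalling, stood at 0.446 and 4.49 FPKM in MATZ against 2.24 and 0 in BETL at 8 DAP. Its values were 76.2 and 44.7 in MATZ against 0 and 9.70 in BETL at 14 DAP, and 36.9 and 71.7 in MATZ against 1.80 and 0 in BETL at 20 DAP. In BETL 1 library of each age listed it at 0, so the ratios of 10.5 at 14 DAP and 29.1 at 20 DAP rest on 1 BETL library above 0 at each age. HP3 (GRMZM2G451604), a phosphotransfer protein of cytokinin signalling, was at 19.6 and 21.4 FPKM in MATZ against 7.60 and 37.3 in BETL at 8 DAP, 56.2 and 44.3 in MATZ against 14.3 and 8.75 in BETL at 14 DAP, and 69.3 and 88.0 in MATZ against 12.6 and 0.695 in BETL at 20 DAP. At 8 DAP the BETL libraries lay on either side of the MATZ ones, and the tissues stood apart later, with BETL libraries far apart again at 20 DAP.

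The single member of 191 tested genes named for transcription factor families was bZIP84 (GRMZM2G361611), a basic leucine zipper factor. It stood at 566 and 358 FPKM in MATZ against 319.8 and 339 in BETL at 8 DAP, 475 and 414 in MATZ against 92.3 and 108 in BETL at 14 DAP, and 298 and 355 in MATZ against 50.3 and 48.8 in BETL at 20 DAP. At 8 DAP the tissues stood close, and afterwards BETL was lower at each age. GT1 (GRMZM2G421491) was at 161 and 104 FPKM in MATZ against 173 and 144 in BETL at 8 DAP, 126 and 168 in MATZ against 44.8 and 24.7 in BETL at 14 DAP, and 91.5 and 71.0 in MATZ against 10.8 and 12.8 in BETL at 20 DAP. Its ratio was 0.840 at 8 DAP and 6.41 at 20 DAP.

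Of 29 tested genes for nitrogen, phosphate and mineral transport, the member was ZIP4 (GRMZM2G111300), of the ZIP family of zinc and iron transporters. It stood at 139 and 209 FPKM in MATZ against 58.5 and 69.8 in BETL at 8 DAP, 153 and 139 in MATZ against 47.0 and 17.9 in BETL at 14 DAP, and 92.5 and 90.7 in MATZ against 10.6 and 4.63 in BETL at 20 DAP. Both tissues had their lowest values at 20 DAP, BETL the more so, but neither step between 20 and 14 DAP passed the test (limma adjusted p = 0.599 in MATZ and 0.144 in BETL). No member came from the lists of 12 sugar transport and cleavage or 6 proton pump genes. The lists of 25 aquaporin and 23 cytokinin genes, the second of which did not catch HP3, gave no member either, but 5 aquaporin genes and 1 cytokinin gene are among the IDs left out. Of these, 2 aquaporin genes and the cytokinin gene met the limits, so the absence of both groups comes from the omission of those IDs. The list of 29 cell wall genes, 1 of them left out by its ID, gave xth1 (GRMZM2G119783), a xyloglucan endotransglucosylase gene, at 71.4 and 32.0 FPKM in MATZ against 0 and 9.11 in BETL at 14 DAP. Among 62 stress genes the member was gst41 (GRMZM2G097989), a glutathione transferase gene, at 177 and 167 FPKM in MATZ against 16.2 and 16.8 in BETL at 20 DAP.

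**Figure D4:**
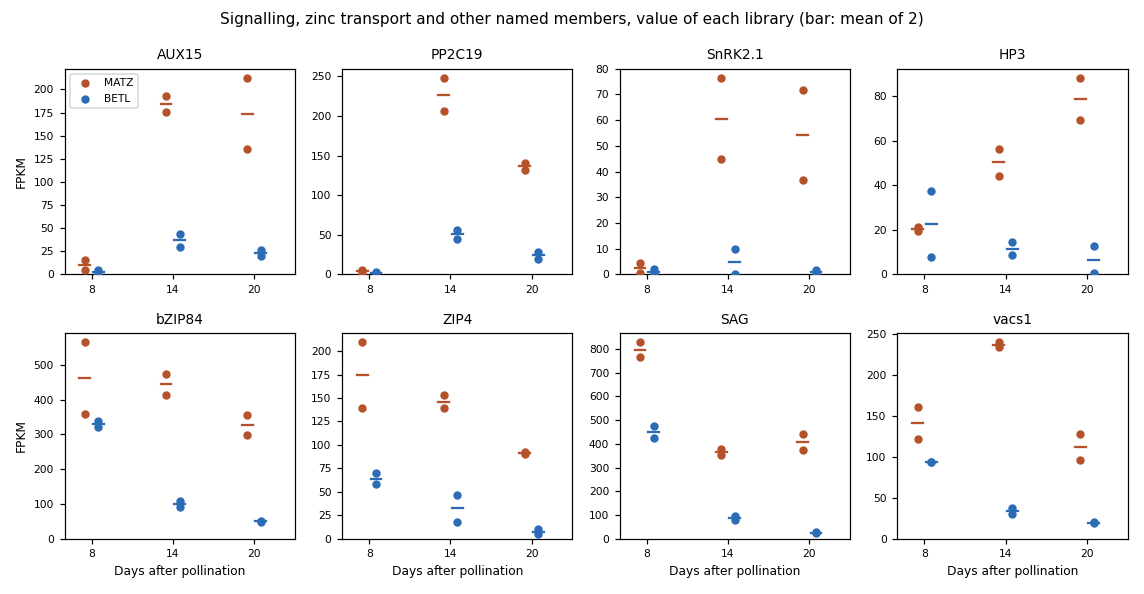
FPKM of 8 further named genes in each library at 8, 14 and 20 DAP; MATZ points are orange and left of BETL points, which are blue, and bars are means of 2 libraries. PP2C19, AUX15 and SnRK2.1 lie at 15.5 FPKM or less in all libraries at 8 DAP, while bZIP84, SAG and vacs1 have their highest BETL values at 8 DAP.

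The gene znod1 (GRMZM2G052562) stood at 1133 and 995 FPKM in MATZ against 406 and 289 in BETL at 8 DAP, 834 and 858 in MATZ against 94.2 and 85.9 in BETL at 14 DAP, and 682 and 586 in MATZ against 25.2 and 22.3 in BETL at 20 DAP. In both tissues the libraries of each later age lay below those of the age before, and its ratio was 3.05, 9.31 and 25.7 at the 3 ages. SAG (GRMZM2G041175) was at 765 and 828 FPKM in MATZ against 474 and 423 in BETL at 8 DAP, 352 and 378 in MATZ against 80.2 and 94.9 in BETL at 14 DAP, and 375 and 441 in MATZ against 28.0 and 21.9 in BETL at 20 DAP. Its MATZ levels at 14 and 20 DAP overlapped and both lay below those at 8 DAP.

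LC-FACS (GRMZM5G840955), for a long-chain fatty acyl-CoA synthetase, was at 95.1 and 156 FPKM in MATZ against 8.47 and 8.74 in BETL at 20 DAP. The gene vacs1 (GRMZM2G067546) was highest in MATZ at 14 DAP, with 240.1 and 233 FPKM in MATZ against 30.3 and 37.0 in BETL. The remorin gene (GRMZM2G004511), for a plasma membrane protein, had a ratio of 3.88 at 8 DAP, 4.24 at 14 DAP and 11.0 at 20 DAP. The gene rpp2b (GRMZM2G114954), for an acidic ribosomal protein, had ratios of 2.91, 4.87 and 5.06, and rf2 (GRMZM2G058675), a mitochondrial aldehyde dehydrogenase gene known as a fertility restorer, 2.89, 4.11 and 6.40. YGL010w (GRMZM2G027193), named after a yeast gene, had ratios of 3.37, 4.49 and 4.91. The record with the names prcw1, PRP and Sf3a2 (GRMZM2G049915) had ratios of 3.14, 9.27 and 47.2, with BETL at 0.773 and 1.26 FPKM at 20 DAP.

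From 14 to 20 DAP the selection asked for the same limits at both ages and did not fix the direction of change. It may still have favoured a larger ratio and a lower BETL level at 20 DAP. The ratio was capped at the earliest age. At 14 DAP its lower quartile was 4.59, near the limit of 4, against 6.62 at 20 DAP. A gene that fell far in MATZ or increased far in BETL could not be chosen. Counts and p-values for this step therefore describe the chosen genes, and how far the selection tilts them was not tested. The ratio of MATZ to BETL was larger at 20 than at 14 DAP in 150 of the 187 genes (80.2%), against 56.8% of all tested genes and 69.1% of the MATZ-abundant ones. The median fitted tissue difference in this change was 0.58 on the log2 scale, against 0.14 over all tested genes. It was 0.35 with median-of-ratios scaling and 0.26 with quantile normalization, against 0 and -0.01 over all tested genes. In MATZ both libraries at 20 DAP were above both at 14 DAP in 53 genes (28.3%) and below in 72 (38.5%). The shares were 19.8% above and 14.3% below among all tested genes, and 36.3% and 21.5% among the MATZ-abundant ones. The share above in the 187 thus lay between those 2 backgrounds. In BETL both libraries at 20 DAP were below both at 14 DAP in 114 genes, 61.0% of them, against 22.3% of all tested genes and 39.4% of the 2077 MATZ-abundant genes. The median fitted log2 change was -0.06 in MATZ and -0.75 in BETL, against 0 in both tissues over all tested genes.

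Limma called 11 of the 187 genes (5.88%) lower and 0 higher in MATZ at 20 than at 14 DAP. The shares were 0.698% lower and 0.772% higher among all tested genes, and 2.31% and 1.49% among the MATZ-abundant ones. In BETL it called 25 (13.4%) lower and 0 higher, against 0.525% and 0.277% of all tested genes. Among the MATZ-abundant ones the BETL shares were 3.51% lower and 0.193% higher. At an unadjusted p under 0.05, 13 were higher and 29 lower in MATZ, and 11 higher and 84 lower in BETL. Over all tested genes the unadjusted shares were 8.05% higher and 5.06% lower in MATZ, and 3.59% and 5.03% in BETL. With median-of-ratios scaling all tested genes gave 107 calls higher and 145 lower in MATZ, and with quantile normalization 135 and 192, against 187 and 169 as reported. The 187 members gave 0 higher and 10 lower in MATZ on the first of these scales, and 0 and 11 on the second. In BETL the members gave 0 higher and 19 lower on the first, and 1 and 20 on the second. All 11 genes called lower in MATZ were also among the 25 called lower in BETL, which leaves 14 called in BETL alone; both tests share each gene's spread. The difference between the tissues in this change passed for 0 genes in either direction, against 0.0289% and 0.00826% of all tested genes. At an unadjusted p under 0.05 the MATZ change was the higher one in 42 of the 187 genes and the lower one in 1. Over all tested genes it was the higher one in 6.24% and the lower one in 3.42%.

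The counts moved with single libraries. The count in MATZ was 5 without MATZ 14 DAP replicate 1, 4 without its replicate 2, 7 and 5 without MATZ 20 DAP replicates 1 and 2, and 6 without either BETL 20 DAP library. The count lower in BETL was 15 without MATZ 14 DAP replicate 1, and 11 and 14 without BETL 20 DAP replicates 1 and 2. Without BETL 14 DAP replicate 1 it was 11 lower and 1 higher. Without BETL 14 DAP replicate 2 it was 19 lower and 9 higher, so calls in the other direction came with the omission of 1 library. Both counts were 0 when only the compared groups were fitted. A gene without a call may still have changed.

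Of the 11 genes lower in both tissues, 10 had their highest MATZ mean at 14 DAP and 7 their highest BETL mean, and 6 were among those higher in MATZ with BETL within 2-fold between 8 and 14 DAP. None of the 11 has a descriptive name. GRMZM2G003762 (chromosome 10, 4673451 to 4676086) had the highest MATZ level of all, with 2274 and 2340.4 FPKM in MATZ against 990.1 and 940.0 in BETL at 8 DAP, 6653 and 6220.2 in MATZ against 1193 and 1396 in BETL at 14 DAP, and 2507 and 2392 in MATZ against 505 and 453 in BETL at 20 DAP. Both tissues were high at 14 DAP and low again at 20 DAP, with no overlap between these ages. Its log2 change was -1.39 ± 0.13 in MATZ and -1.43 ± 0.13 in BETL (SE; limma adjusted p = 0.00172 and 0.00208).

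GRMZM2G123896 (chromosome 1, 222591008 to 222592434) fell furthest in MATZ. It stood at 364 and 563 FPKM in MATZ against 208 and 165 in BETL at 8 DAP, 879.8 and 921 in MATZ against 123 and 95.3 in BETL at 14 DAP, and 76.4 and 129 in MATZ against 9.54 and 14.8 in BETL at 20 DAP. All libraries at 20 DAP lay below all others of their tissue, with a log2 change of -3.16 ± 0.34 in MATZ and -3.09 ± 0.34 in BETL (SE; limma adjusted p = 0.00293 and 0.00439). GRMZM2G364748 (chromosome 10, 68924719 to 68926477) was at 334 and 234 FPKM in MATZ against 262 and 254 in BETL at 8 DAP, 2127 and 1949.7 in MATZ against 361 and 344 in BETL at 14 DAP, and 690.2 and 758 in MATZ against 129.9 and 145 in BETL at 20 DAP. The tissues overlapped at 8 DAP only.

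GRMZM2G368827 (chromosome 1, 194932443 to 194935353) was the gene called lower in MATZ at 8 DAP, by a log2 difference of -0.64 ± 0.15 (SE; limma adjusted p = 0.0296). With quantile normalization the same difference was 0.70 ± 0.16, called higher (limma adjusted p = 0.0218), so its direction depends on the scaling. The call was also not made without any 1 of the 4 libraries of 8 DAP, on the compared groups alone, or without a mean trend. In FPKM it stood at 4255 and 3931 FPKM in MATZ against 6635 and 6095 in BETL at 8 DAP, 2321 and 2669 in MATZ against 552 and 459 in BETL at 14 DAP, and 1376 and 1401 in MATZ against 184 and 205 in BETL at 20 DAP. In both tissues each later age lay below the one before with no overlap, and in FPKM BETL was the higher tissue at 8 DAP and MATZ at 14 DAP. Its log2 change between 20 and 14 DAP was -0.84 ± 0.15 in MATZ and -1.37 ± 0.15 in BETL (SE; limma adjusted p = 0.0265 and 0.00433), and the MATZ call was lost when any 1 of 8 libraries was left out. GRMZM2G028129 (chromosome 7, 15004435 to 15006374) was at 2368 and 2208 FPKM in MATZ against 1196 and 1076 in BETL at 8 DAP, 2330.3 and 2389 in MATZ against 527 and 619.5 in BETL at 14 DAP, and 764 and 903 in MATZ against 133 and 136 in BETL at 20 DAP. Its fall in BETL came at both steps and that in MATZ at the second.

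**Figure D5:**
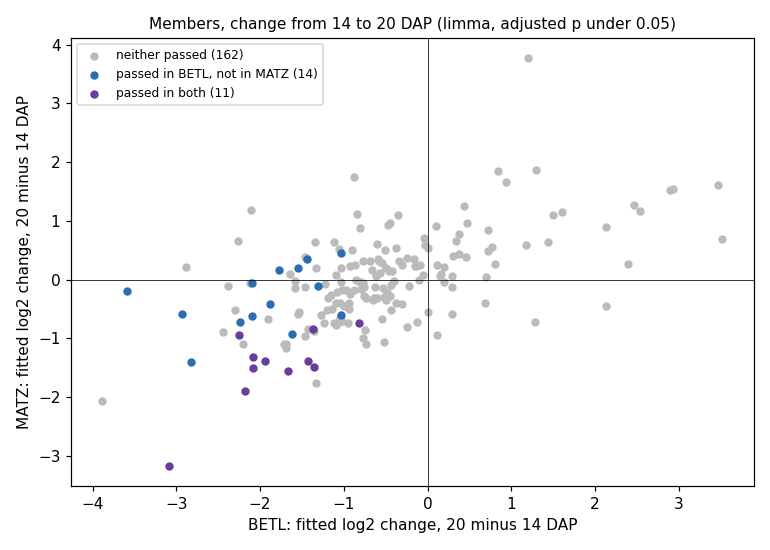
Fitted log2 change between 20 and 14 DAP in BETL (horizontal axis) and MATZ (vertical axis) of the 187 genes; purple points passed in both tissues (11), blue points in BETL alone (14), and grey points in neither (162). All 25 coloured points lie left of 0 on the BETL axis.

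Among the 14 genes called lower in BETL alone, besides see2b, mir3, znod1 and SAG, GRMZM2G087094 (chromosome 4, 196241473 to 196242626) stood at 576 and 619 FPKM in MATZ against 428 and 317 in BETL at 8 DAP. It was at 1025 and 1101 in MATZ against 192 and 161 in BETL at 14 DAP, and at 1113 and 1324 in MATZ against 54.2 and 65.4 in BETL at 20 DAP. In MATZ each later age lay above the one before, and in BETL below it. Its BETL call was not made without BETL 14 DAP replicate 1 or BETL 20 DAP replicate 1. SAG, GRMZM2G087094 and see2b had the smallest p-values for the difference between the tissues, with log2 differences of 1.93 ± 0.30, 1.74 ± 0.30 and 1.49 ± 0.26 (SE; limma adjusted p = 0.0786, 0.0955 and 0.0955), none past 0.05.

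The largest ratios at 20 DAP came with BETL values near 0. GRMZM2G348125 reached 93.1, with 289 and 271 FPKM in MATZ against 0 and 4.03 in BETL, and GRMZM2G023847 reached 79.7, with 212 and 86.9 in MATZ against 0 and 1.77 in BETL. AC209208.3_FG002 reached 54.4 at a higher level, with 1075 and 828 FPKM in MATZ against 22.5 and 10.5 in BETL, and stood at 406 and 596 in MATZ against 76.2 and 213 in BETL at 8 DAP. In all, 6 genes were listed at 0 in at least 1 MATZ library and 32 in at least 1 BETL library, 17 of them in BETL 14 DAP replicate 1. GRMZM5G868973 had its 20 DAP level from 1 library, with 706 and 74.3 FPKM in MATZ against 69.3 and 22.5 in BETL. GRMZM2G003835 was the gene whose tissues overlapped at 14 DAP, with 108 and 0 FPKM in MATZ against 0 and 18.2 in BETL. GRMZM2G356839 was listed at 0 in all 4 libraries at 8 DAP and stood at 201 and 177 FPKM in MATZ against 5.80 and 9.30 in BETL at 20 DAP.

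Near the limits of the selection, the ratio at 14 DAP of the closest genes was 4.02 in GRMZM2G072671 inside and 3.998 in GRMZM2G467756 outside. At 20 DAP it was 4.05 in GRMZM2G104494 inside and 3.87 in GRMZM2G169773 outside. At 8 DAP it was 3.995 in GRMZM2G036286 inside and 4.01 in GRMZM5G872141 outside, and at the lower limit the closest gene inside was GRMZM5G868973 with 0.397 and none lay outside. The MATZ mean was 50.2 FPKM in GRMZM2G451604 inside and 47.1 in GRMZM2G301860 outside at 14 DAP, and 51.8 in GRMZM2G165351 inside and 49.98 in GRMZM2G426125 outside at 20 DAP. Of 321 genes that met the limits at 14 and 20 DAP, 126 already had a ratio of at least 4 at 8 DAP.

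By position, 39 of the genes (20.9%) lie on chromosome 1, which holds 15.8% of the tested genes, and the other chromosomes hold 10 to 21 each. Neighbouring gene models were members together in 4 cases. On chromosome 3, GRMZM2G158807 (195105078 to 195107768) and GRMZM2G460078 (195105902 to 195126859) overlap on opposite strands, and whether the counting used strand is not given in the sources used here, so their reads cannot be told apart. GRMZM2G158807 stood at 1797 and 1548 FPKM in MATZ against 1546 and 1542 in BETL at 8 DAP and GRMZM2G460078 at 546 and 328 in MATZ against 617 and 585 in BETL. At 20 DAP GRMZM2G158807 was at 481 and 505 in MATZ against 81.7 and 90.3 in BETL, and GRMZM2G460078 at 167 and 169 in MATZ against 24.6 and 34.3 in BETL. Of the 187 genes, 11 overlap another gene model, each on the opposite strand, and the partner was above 10 FPKM in MATZ in 8.

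The other neighbouring pairs do not overlap. On chromosome 2, mir3 lies 27033 bp from GRMZM2G096546, which was at 114 and 65.7 FPKM in MATZ against 9.92 and 11.7 in BETL at 20 DAP. On chromosome 9, GRMZM2G085812 lies 16647 bp from GRMZM2G119067, and both had their highest BETL levels at 8 DAP, with 114 and 89.6 FPKM and with 122 and 123. On chromosome 10, GRMZM2G445616 lies 14024 bp from GRMZM2G073465. They differed in level, with 47.9 and 57.6 FPKM in MATZ against 1.61 and 2.63 in BETL for the first at 20 DAP, and 559 and 680.4 in MATZ against 40.1 and 41.3 in BETL for the other. The median length from start to end was 2158 bp for the 187 genes, 3236 bp for all tested genes and 2638 bp for the MATZ-abundant ones.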

How the data were processed

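The authors deposited FPKM values, not counts, in a single table with a column for each library. TopHat2, Bowtie2 and Cufflinks appear without versions per the submitters' processing notes, and neither genome build nor strand handling is given in the sources used here. Columns were assigned to tissue and age by title. The FPKM values were left unscaled, and no count test was run, since depth is only inferred from steps in low values.

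Each comparison used limma 3.58.1 in R 4.3.3 on log2(FPKM + 1), a scale that understates changes of low genes. A single model with 6 group means took in all 12 libraries (6 residual and 3.79 prior degrees of freedom), with moderation of the variances along a trend in the mean. Genes reaching 1 FPKM in 2 or more libraries entered the test (24213, all 187 members among them). Benjamini-Hochberg adjustment ran over all 24213, and an adjusted p under 0.05 was called. Differences are MATZ minus BETL or later minus earlier. The script was tested on simulated data for MATZ at 20 against 14 DAP. It recovered 6% of 100 genes changed by 1 on the log2 scale and 26% of 100 changed by 2. Most planted changes of this size were thus missed. Of its calls 3.03% were false, which was 1 call. Only the planted genes changed in the simulation, whereas the deposited values gave 187 calls higher and 169 lower over all tested genes. The recovery in the deposited data may therefore differ. Python 3.11.15 with pandas 2.3.3, numpy 2.4.6 and matplotlib 3.10.9 made the tables and plots.

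Symbols were looked up in RefSeq's gene table for Zm-B73-REFERENCE-NAM-5.0, whose coordinates were not used: 154 of 187 IDs matched and 26 have a descriptive name. The role of a named gene is background knowledge of its name. The named genes, 64 in all, were those with a descriptive name or in a list, the 10 highest in MATZ at 20 DAP, the 5 largest ratios at 20 DAP, the 5 largest called changes in each direction between 14 and 20 DAP, genes next to each limit and neighbouring members. Features singled out for a 0 or for 1 deviating library were named after their values were seen. The members and 24 symbol lists were chosen with earlier results of these data known, and 1 list pattern was narrowed after it was seen to catch protein phosphatase genes. Same-numbered libraries did not deviate together (r = -0.0168 to 0.0164 over genes), so the numbers were not taken as pairs. Across genes, replicates correlated with r = 0.791 to 0.805 in MATZ and 0.789 to 0.912 in BETL. Alternatives covered the pseudocount, the filter, the scaling, a replicate block, models of only the groups compared, variances without the trend and the omission of each library.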

Additional observations from a re-analysis of the deposited data

Results flagged for a closer look

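In 16 of the named genes the change between 8 and 14 DAP differed between MATZ and BETL by the limma test of the difference itself. The selection asked for a larger ratio of MATZ to BETL at 14 DAP than at 8 DAP, so it fixes the direction of each of these values, which describe the genes and support nothing. Of the proteases, ccp1 had a log2 difference of 2.22, mir3 1.98 and see2b 1.68. The difference was 1.59 for znod1 and 2.21 for vacs1. Among genes with no descriptive name it was 3.12 for GRMZM2G096591, 2.94 for GRMZM2G368827, 2.79 for GRMZM2G460078 and 2.41 for GRMZM2G364748. It was 2.17 for GRMZM2G073465, 1.96 for GRMZM2G158807, 1.90 for GRMZM2G087094 and 1.89 for GRMZM2G176375. The remaining values were 1.74 for GRMZM2G472248, 1.68 for GRMZM5G858653 and 1.06 for GRMZM2G003762. Adjusted p-values of the 16 ran from 0.00198 to 0.0413, and none of the 16 passed on the compared groups alone or without a mean trend. With 2 libraries a group, no group was large enough for a test of single outlying samples.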

How the results depend on the processing

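The selection gave 187 genes as reported, 100 with a fold limit of 6, 284 with a MATZ floor of 25 FPKM, 118 with a floor of 100, and 181 to 198 when 1 library of a group stood for both. With median-of-ratios scaling it gave 136 genes, 119 of them shared with the 187, and with quantile normalization 137, 113 of them shared. The call of GRMZM2G368827 at 8 DAP reversed with quantile normalization, with a log2 difference of 0.70 against -0.64 as reported; no other of the called values of named genes recomputed here reversed. Calls in the opposite direction to those reported between 20 and 14 DAP appeared in BETL for 1 gene with quantile normalization and in MATZ for 1 with a pseudocount of 5. Fitted on the compared groups alone, the counts of called members were 0 for MATZ at 20 against 14 DAP (11 as reported), 0 for BETL (25) and 1 for the tissue difference (0); they were 0 for MATZ at 14 against 8 DAP (33), 0 for BETL (78), 0 for the tissue difference (32), 0 for the tissues at 8 DAP (44) and 0 at 14 DAP (168). Without a mean trend they were 1 for MATZ and 0 for BETL at 20 against 14 DAP, 16 for MATZ at 14 against 8 DAP, 0 for that tissue difference and 8 for the tissues at 8 DAP. A pseudocount of 0.1 gave 5 for the tissue difference between 14 and 20 DAP, and one of 5 gave 50 for MATZ at 14 against 8 DAP. The tissues at 8 DAP gave 27 calls with median-of-ratios scaling and 24 with quantile normalization. With a replicate block the tissue difference between 8 and 14 DAP gave 21 calls, and the counts between 20 and 14 DAP were 9 in MATZ and 18 in BETL. Causes were not tested.

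Leaving out 1 library at a time gave 4 to 11 calls for MATZ and 11 to 28 for BETL at 20 against 14 DAP, both directions together (the 28 being 19 lower and 9 higher, without BETL 14 DAP replicate 2), and 0 to 2 for the tissue difference, the 2 without either MATZ 8 DAP library. It gave 17 to 38 for MATZ and 57 to 75 for BETL at 14 against 8 DAP, 10 to 50 for that tissue difference, and 18 to 47, 117 to 170 and 137 to 177 for the tissues at 8, 14 and 20 DAP. The MATZ count at 14 against 8 DAP was 18 and 17 without MATZ 14 DAP replicates 1 and 2. The tissue difference was 14 and 10 without those, 13 and 20 without BETL 8 DAP replicates 1 and 2, 50 without BETL 14 DAP replicate 2, and 20 and 21 without BETL 20 DAP replicates 1 and 2. The count at 8 DAP was 21 and 18 without MATZ 8 DAP replicates 1 and 2 and 26 without BETL 8 DAP replicate 1. The settings for the 2-fold counts between 8 and 14 DAP were chosen after seeing the data: MATZ was higher in 62 to 70 genes and BETL lower in 90 to 106 with a library left out. Groups of 2 libraries and the low inferred depth limit what a missing call can mean, and low BETL values carry the largest relative error.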
